A study of Caenorhabditis elegans with 6 samples.

Results

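A set of 40 genes of muscle contraction and of the gonadal sheath were followed through dissected germline samples of the nematode *Caenorhabditis elegans*. The expression table held 18206 genes in all. Members were taken from a fixed list of symbols for sarcomere proteins, calcium-handling proteins and sheath identity genes, matched to WormBase gene identifiers. The rule used no measured value, but the list was chosen with earlier results of these data known. All 40 were found in the table. By the muscles they are best known from, 9 were assigned to body wall muscle, 5 to the pharynx, 14 to several muscle types, 8 to muscle together with other cells, and 4 to the gonadal sheath. The study examined what loss of ADR-2, the only active adenosine deaminase acting on RNA in this worm, does to germline transcripts. Germlines came from *adr-2(-)* hermaphrodites, strain BB20 with the ok735 deletion allele, and from wild-type hermaphrodites, strain N2, with 3 biological replicates of each. Synchronized young adults at 60 h after egg-lay, grown at 20°C, were cut at the pharynx so that the gonad extruded, and the gonads were collected by mouth aspiration. RNA was then poly(A)-selected and made into stranded libraries.

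Body wall muscle of *C. elegans* is striated, with thick filaments of myosin and paramyosin that pull on thin filaments of actin, tropomyosin and troponin when calcium is released. The proximal gonadal sheath is a thin myoepithelial layer around the oocytes that uses much of the same machinery, including the myosins encoded by *unc-54* and *myo-3*, to squeeze the oldest oocyte into the spermatheca. Sheath cells adhere to the gonad and come out with it on dissection, whereas body wall muscle lies under the hypodermis and pharyngeal muscle lies in the head. Although grouped here with body wall muscle, *unc-54* and *myo-3* are therefore not particular to it, and the muscle genes have a source within an intact gonad as well as outside it. In these bulk samples, fewer cells of a type and less RNA per cell cannot be told apart.

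Values below are normalized counts, meaning reads on a gene divided by 1 size factor per library. Each set of 3 values is given in the order of replicates 1, 2 and 3. Libraries held 33658937 to 38310069 reads on genes in *adr-2(-)* and 44991286 to 96397215 in wild type, so that 1 read was worth 1.15 to 1.36 normalized counts in *adr-2(-)* and 0.483 to 1.05 in wild type. The deleted gene itself, *adr-2*, had 29.2, 61.0 and 35.6 normalized counts in *adr-2(-)* germlines, against 3020, 2822 and 2852 in wild-type germlines, as the labels state. The library of *adr-2(-)* replicate 1 stood apart from the other 5. It was at least 2-fold above their median for 22 of the 36 members whose mean reached 10 normalized counts, whereas 11.3% of all 9779 genes at that minimum were. Strain differences are therefore also given without it.

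**Figure D1:**
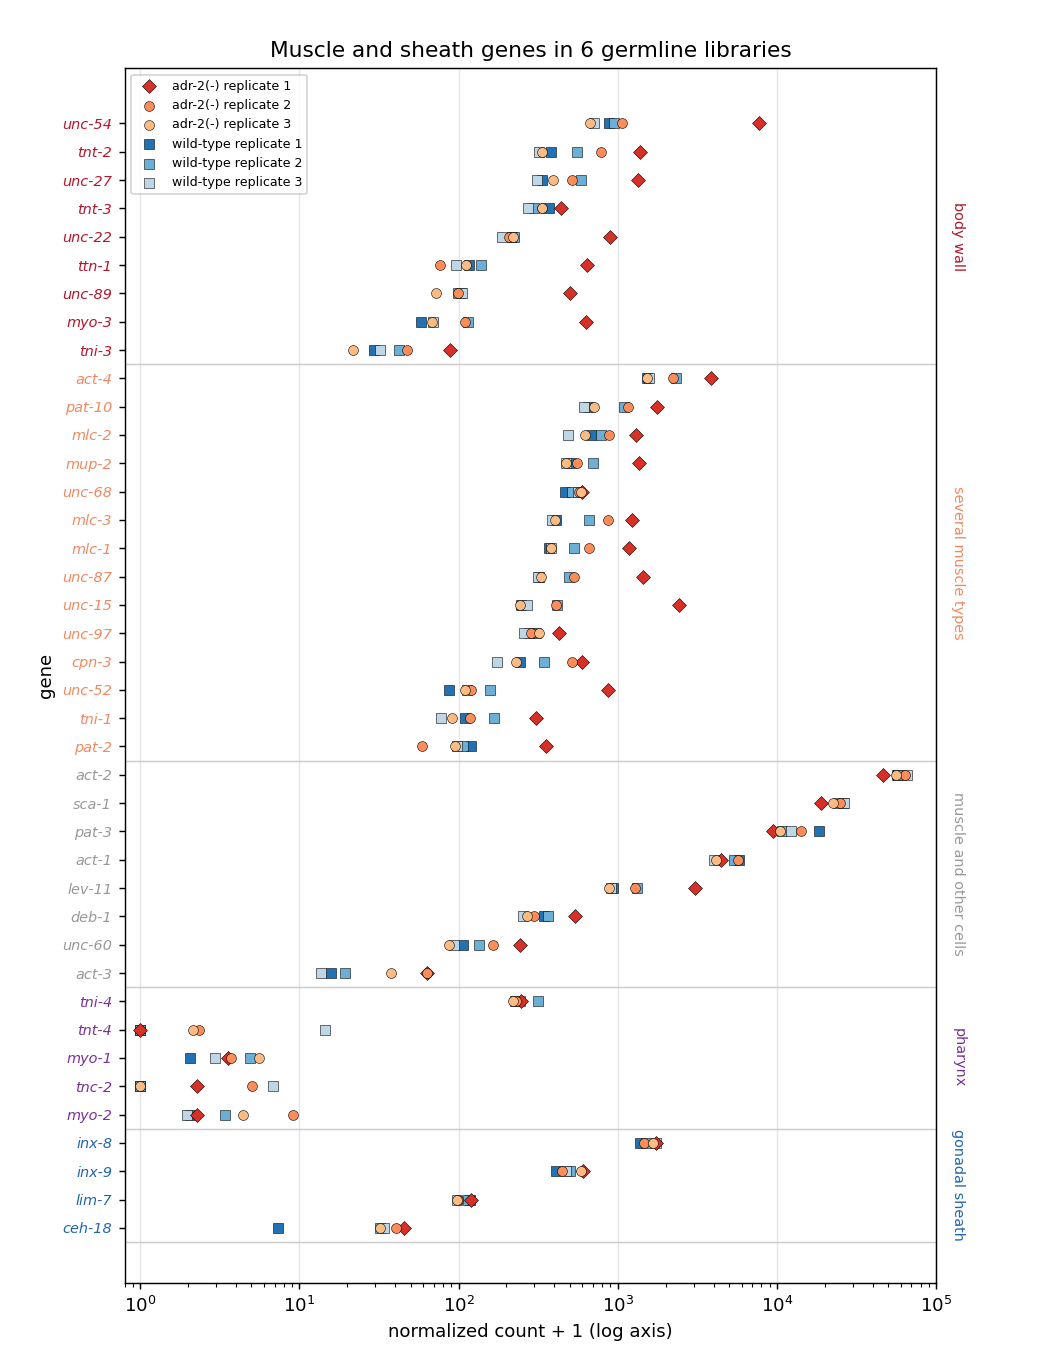
Normalized count + 1 on a log axis for each of the 40 genes, 1 row a gene, grouped by class, with *adr-2(-)* replicates as orange to red symbols and wild-type replicates as blue squares. The red diamonds of *adr-2(-)* replicate 1 lie to the right of every other point for 30 of the 36 tested genes. Over all 9779 tested genes, 24.1% had that library highest. The excess over the median of the other 5 libraries reaches 9.32-fold for *myo-3*. The gonadal sheath genes at the bottom lie close together except for the low wild-type replicate 1 of *ceh-18*.

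Among thick filament genes, *unc-54*, the major myosin heavy chain of body wall muscle (chromosome I, 14855901 to 14863482 in WBcel235), had 7747, 1057 and 664 normalized counts in *adr-2(-)* germlines, against 875, 954 and 706 in wild-type germlines. A single *adr-2(-)* library was high, and the others lay on either side of the wild-type values. The mean was 3156 ± 3981 in *adr-2(-)* and 845 ± 126 in wild type (SD, n = 3 each), so that the spread among *adr-2(-)* replicates exceeded their mean. *myo-3*, the second body wall heavy chain, found at the centre of the filament, had 631, 109 and 66.7 normalized counts in *adr-2(-)*, against 56.8, 114 and 67.7 in wild type. *unc-15*, which encodes paramyosin of the filament core, had 2430, 408 and 244 normalized counts in *adr-2(-)*, against 245, 414 and 269 in wild type. In all 3 genes *adr-2(-)* replicate 1 was 8.85 to 9.32 times the median of the other 5 libraries, and without that library the strains overlapped.

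The myosin light chains were displaced less in the same library. The regulatory light chain genes *mlc-1* and *mlc-2* had 1183, 658 and 378 and 1307, 880 and 618 normalized counts in *adr-2(-)*, against 371, 534 and 377 and 677, 789 and 489 in wild type. *mlc-3*, the essential light chain, had 1227, 871 and 402 normalized counts in *adr-2(-)*, against 408, 656 and 387 in wild type. In *adr-2(-)* replicate 1 these 3 genes stood 1.93 to 3.13 times above the median of the other libraries, and *adr-2(-)* replicate 2 was their second highest library. The products of *mlc-1* and *mlc-2* are nearly the same protein and the genes are neighbours on chromosome X, so that reads could be split between them unevenly. The ratio of *mlc-2* to *mlc-1* was 1.10, 1.34 and 1.64 in *adr-2(-)* and 1.82, 1.48 and 1.29 in wild type. The pharyngeal heavy chains were barely present. *myo-1* had 2, 2 and 4 reads in *adr-2(-)* and 1, 8 and 2 in wild type, and *myo-2* had 1, 6 and 3 reads in *adr-2(-)* and 1, 5 and 1 in wild type.

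Thin filament genes included the most abundant members. *act-2*, an actin used in the early embryo as well as in muscle, had 46164, 63695 and 56018 normalized counts in *adr-2(-)* germlines, against 56902, 57471 and 65431 in wild-type germlines. *act-1*, made in muscle and in embryos, had 4436, 5678 and 4143 normalized counts in *adr-2(-)*, against 5818, 5383 and 4054 in wild type. Neither gene shared the excess of *adr-2(-)* replicate 1, which stood at 0.803 and 0.824 of the median of the other libraries. *act-4*, an actin of body wall and other muscles, had 3850, 2212 and 1524 normalized counts in *adr-2(-)*, against 1531, 2326 and 1574 in wild type, and did share it. *lev-11*, the tropomyosin gene with isoforms in muscle and in other cells, had 3060, 1279 and 878 normalized counts in *adr-2(-)*, against 938, 1314 and 901 in wild type. The 4 actins are near-identical in their coding parts, so that the reads of each are less certain than those of other members.

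A different pattern was seen for *act-3* (chromosome V, 11071690 to 11074498 in WBcel235), next to *act-1* and *act-2*. It had 62.2, 62.4 and 36.8 normalized counts in *adr-2(-)*, against 14.7, 18.4 and 12.6 in wild type, from 49, 46 and 32 reads and 14, 38 and 13 reads. Every *adr-2(-)* library lay above every wild-type library, including replicate 1, which did not exceed replicate 2. The log2 fold change was 1.73 with a standard error of 0.42, and it missed the threshold with limma at an adjusted p of 0.163. With DESeq2 on the recovered reads it was called, at a log2 fold change of 1.80 and an adjusted p of 0.0329. edgeR gave an adjusted p of 0.156, the alternatives with limma gave 0.157 to 0.425, and DESeq2 without *adr-2(-)* replicate 1 gave 0.169. An exact two-sided permutation test gave p = 0.1, which is the smallest that 3 against 3 samples allow.

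The deposited count of *act-3* was small beside the read depth at its locus. The editing lists, described further on, give the number of reads over each position they hold. Within the annotated span of *act-3*, the merged *adr-2(-)* list held 18 positions with a median depth of 3716 reads, against 127 reads counted on the gene over its 3 libraries. The wild-type lists held 7, 15 and 16 positions with a median depth of 1874, 2460 and 1061 reads, against 14, 38 and 13 reads counted. Of these positions, 6 in *adr-2(-)* and 2, 5 and 3 in wild type had been assigned to *act-2* by the authors. Merged *adr-2(-)* and at least 1 wild-type list had 7 positions in common. Depth divided by size factor was higher in merged *adr-2(-)* at 5 of them, each listed for 1 wild-type library, and within the wild-type range at 2, each listed for 2 wild-type libraries. At position 11071879 it was 2776 in merged *adr-2(-)*, against 1242 in wild-type replicate 3, and at position 11072058 it was 577 in merged *adr-2(-)*, against 568 and 640 in wild-type replicates 1 and 2. The ratio of *adr-2(-)* to the wild-type mean ran from 0.954 to 2.23 over the 7 positions with a median of 1.21, beside 3.53 for the gene count, and the merged list has no replicates. The noncoding RNA gene T04C12.17 overlaps *act-3* on the opposite strand and had 13.97, 52.9 and 16.1 normalized counts in *adr-2(-)*, against 70.5, 22.7 and 25.2 in wild type.

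The troponin complex sits on the thin filament and holds it off until calcium binds. Among its tropomyosin-binding T subunits, *tnt-2* of body wall muscle had 1378, 780 and 332 normalized counts in *adr-2(-)*, against 382, 556 and 321 in wild type. *mup-2*, the T subunit used in body wall and in non-striated muscle, had 1368, 557 and 473 normalized counts in *adr-2(-)*, against 508, 703 and 470 in wild type. In contrast, *tnt-3*, also of body wall muscle, had 438, 335 and 336 normalized counts in *adr-2(-)*, against 371, 299 and 272 in wild type. Its ratio of *adr-2(-)* replicate 1 to the median of the other libraries was 1.31, the lowest of the 9 body wall members.

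Among inhibitory I subunits, *unc-27* of body wall muscle had 1333, 514 and 392 normalized counts in *adr-2(-)*, against 335, 586 and 311 in wild type. *tni-1* had 307, 117 and 89.6 normalized counts in *adr-2(-)* and 108, 166 and 76.4 in wild type, and *tni-3* had 87.6, 46.1 and 20.7 in *adr-2(-)* and 28.4, 41.0 and 30.96 in wild type. *pat-10*, the calcium-binding C subunit of body wall and other muscles, had 1778, 1153 and 711 normalized counts in *adr-2(-)*, against 659, 1101 and 613 in wild type. These 4 genes were 2.50 to 3.40 times higher in *adr-2(-)* replicate 1 than the median of the other libraries, with overlap among those libraries.

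Pharyngeal troponins were nearly absent, with 1 exception. *tnt-4* had 0, 1 and 1 reads in *adr-2(-)* and 0, 0 and 14 in wild type, and *tnc-2* had 1, 3 and 0 reads in *adr-2(-)* and 0, 0 and 6 in wild type. A count of 0 allows up to 3 reads, or 3.81 normalized counts in *adr-2(-)* replicate 1 and 1.45 in wild-type replicate 2. *tni-4*, listed as the pharyngeal I subunit, had 248, 228 and 220 normalized counts in *adr-2(-)*, against 224, 316 and 241 in wild type. Its level per kb in wild type was 317 ± 59.5 (SD, n = 3), above that of 24 other members. The gene shares 16 nt of exon with Y59E9AL.36 on the opposite strand, which averaged 8672 normalized counts over the 6 libraries. The other 4 members of the pharyngeal class were at or near 0, so that *tni-4* alone stood apart from its class.

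Regulators of actin filaments resembled the filament genes. *unc-87*, a protein with calponin-like repeats that bundles actin, had 1445, 532 and 329 normalized counts in *adr-2(-)*, against 318, 496 and 314 in wild type. *cpn-3*, of the calponin family, had 596, 513 and 229 normalized counts in *adr-2(-)*, against 241, 345 and 172 in wild type. *unc-60*, the cofilin gene that severs actin filaments, had 241, 163 and 86.2 normalized counts in *adr-2(-)*, against 106, 134 and 92.9 in wild type. The excess of *adr-2(-)* replicate 1 was 4.40-fold, 2.47-fold and 2.27-fold in these 3 genes. *unc-60* shares 56 nt of exon on the same strand with F53E2.2, which had 508, 468 and 450 normalized counts in *adr-2(-)*, against 726, 699 and 922 in wild type.

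For the giant proteins of the sarcomere, 1 library was clearly separated from the other 5. *unc-22*, which encodes twitchin, had 891, 206 and 218 normalized counts in *adr-2(-)*, against 217, 221 and 187 in wild type. *unc-89*, the obscurin of the M-line, had 504, 97.7 and 71.3 normalized counts in *adr-2(-)*, against 102, 98.03 and 105 in wild type. *ttn-1*, a titin-like protein, had 641, 76.0 and 110 normalized counts in *adr-2(-)*, against 116, 138 and 95.8 in wild type. The other 5 libraries of *unc-22* spanned 1.18-fold from lowest to highest, so that the 4.11-fold excess of *adr-2(-)* replicate 1 lay far outside their spread. Because counts grow with transcript length, these are low levels per kb. In wild type *unc-22* averaged 8.90 ± 0.79, *unc-89* 3.91 ± 0.13 and *ttn-1* 2.08 ± 0.38 normalized counts per kb (SD, n = 3 each).

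Attachment genes differed among themselves in *adr-2(-)* replicate 1. *unc-52*, the perlecan of the basement membrane under muscle, had 869, 118.004 and 108 normalized counts in *adr-2(-)*, against 86.3, 156 and 111 in wild type. *pat-2*, the alpha integrin of muscle attachments, had 352, 58.3 and 94.2 normalized counts in *adr-2(-)*, against 119, 106 and 96.8 in wild type. *pat-3*, the beta integrin that is also used by the gonad and other tissues, had 9399, 14166 and 10497 normalized counts in *adr-2(-)*, against 18407, 10837 and 12278 in wild type. In *adr-2(-)* replicate 1 *pat-2* was at 3.64 and *pat-3* at 0.766 of the median of the other libraries. The editing lists assigned 58 entries to *pat-3* at positions 3866239 to 3869347 of chromosome III, outside its span of 3908931 to 3914149 in WBcel235, and whether reads there entered its count was not tested. *deb-1*, the vinculin gene, had 538, 297 and 267 normalized counts in *adr-2(-)*, against 342, 363 and 254 in wild type. *unc-97*, a PINCH adaptor protein of the attachment complex, had 427, 285 and 321 normalized counts in *adr-2(-)*, against 305, 276 and 256 in wild type.

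Neither calcium gene shared the excess. *unc-68*, the ryanodine receptor that releases calcium from the sarcoplasmic reticulum, had 592, 568 and 590 normalized counts in *adr-2(-)*, against 464, 515 and 560 in wild type. Every *adr-2(-)* library lay above every wild-type library, by a log2 fold change of 0.19 with a standard error of 0.11 and a limma adjusted p of 0.524, and of 0.18 without *adr-2(-)* replicate 1. *sca-1*, the calcium pump that refills the reticulum and is used in many cells, had 18912, 24851 and 22513 normalized counts in *adr-2(-)*, against 26075, 24054 and 26439 in wild type. Its lowest library was *adr-2(-)* replicate 1, at 0.761 of the median of the others.

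The sheath identity genes stayed under 2-fold in *adr-2(-)* replicate 1. *inx-8* and *inx-9*, adjacent genes for the innexins of gap junctions between sheath and germ cells, had 1741, 1454 and 1676 and 606, 445 and 587 normalized counts in *adr-2(-)*, against 1388, 1508 and 1740 and 407, 502 and 475 in wild type. *lim-7*, a LIM homeobox gene active in the sheath, had 118.1, 97.7 and 96.5 normalized counts in *adr-2(-)*, against 117, 113 and 96.8 in wild type. *ceh-18*, a POU homeobox gene needed for sheath cell differentiation, had 44.4, 39.3 and 31.03 normalized counts in *adr-2(-)*, against 6.31, 30.9 and 32.9 in wild type. In *ceh-18* the low value was wild-type replicate 1. Its log2 fold change was 0.96 with a standard error of 0.62, and 0.24 without that library. All 4 genes were at 1.15 to 1.43 times the median of the other libraries in *adr-2(-)* replicate 1, and none reached 2-fold. That library was nonetheless the highest for all 4, where it was for 24.1% of all tested genes.

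**Figure D2:**
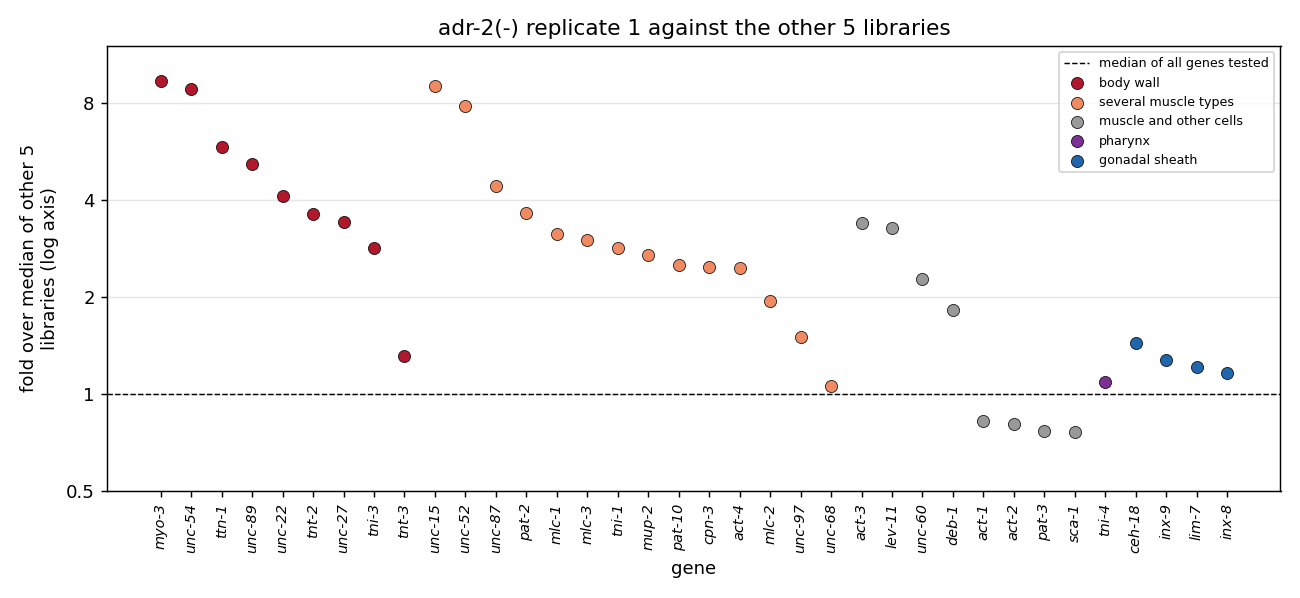
Normalized count of *adr-2(-)* replicate 1 divided by the median of the other 5 libraries, on a log axis, for each of the 36 tested genes, coloured by class. The dashed line is the median of all 9779 tested genes, 0.997, and body wall genes reach 9.32 while sheath genes lie between 1.15 and 1.43 and *sca-1*, *pat-3*, *act-2* and *act-1* lie below 1.

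Set against each other, the classes differed in how far *adr-2(-)* replicate 1 departed from the other libraries. The median excess over the members of a class was 4.11-fold for body wall, 2.76-fold for several muscle types, 1.32-fold for muscle and other cells, and 1.24-fold for sheath. At least 2-fold were 8 of 9 body wall members, 11 of 14 of several muscle types, 3 of 8 of muscle and other cells, 0 of 4 sheath members and 0 of the 1 pharyngeal member tested. The members that passed 4-fold were 8, namely *myo-3*, *unc-15*, *unc-54*, *unc-52*, *ttn-1*, *unc-89*, *unc-87* and *unc-22*. Across the 36 members the excess had a Spearman correlation of -0.55 with the wild-type level per kb and of 0.32 with exon length, as a description over genes that share the same libraries. The wild-type libraries also enter the median by which the excess is divided. A negative correlation with their level may therefore be partly built in. *unc-54* alone made up 26.9% of the summed excess of the members that were above the median, which came to 25577 normalized counts.

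Summed over the 9 body wall genes, the level was 13652, 3220 and 2211 normalized counts in *adr-2(-)*, against 2483, 3007 and 2096 in wild type. The 14 genes of several muscle types summed to 17729, 8930 and 6110 in *adr-2(-)*, against 6041, 8584 and 5767 in wild type. The 4 sheath genes summed to 2509, 2036 and 2390 in *adr-2(-)*, against 1918, 2154 and 2345 in wild type. The ratio of the body wall sum to the sheath sum was 5.44, 1.58 and 0.925 in *adr-2(-)*, against 1.29, 1.40 and 0.894 in wild type. The ratio was highest in 1 *adr-2(-)* library, and the other 5 overlapped between strains. Most of the body wall sum in that library came from *unc-54*, a myosin that sheath cells also make. Without *unc-54* and *myo-3*, the other 7 body wall genes gave a ratio to the sheath sum of 2.10, 1.01 and 0.619 in *adr-2(-)*, against 0.809, 0.9002 and 0.564 in wild type.

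**Figure D3:**
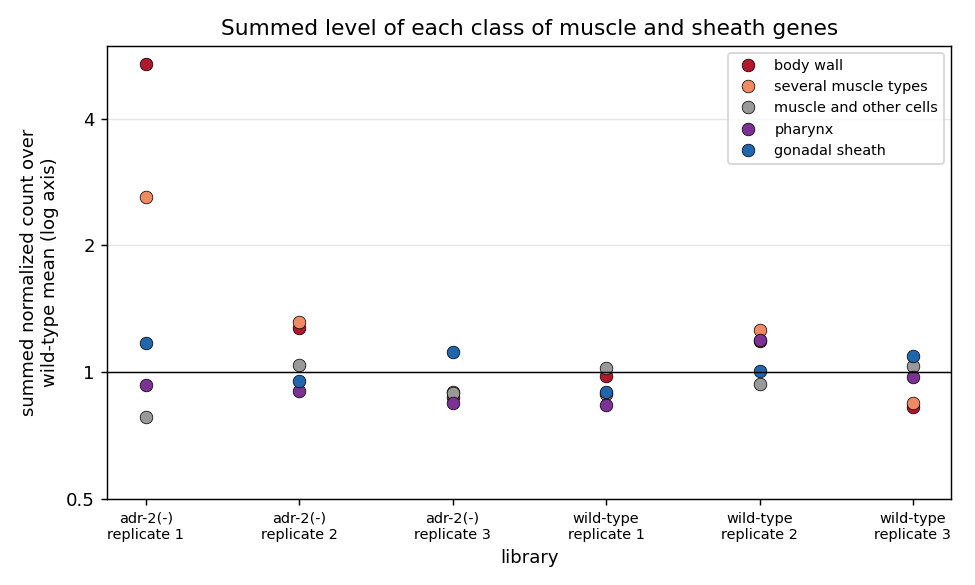
Summed normalized count of each class in each library divided by the wild-type mean of that class, on a log axis, with *adr-2(-)* libraries on the left and wild-type libraries on the right. In *adr-2(-)* replicate 1 the body wall sum is 5.40 times and the sum of several muscle types 2.61 times the wild-type mean, and the sheath sum is 1.17 times.

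Ordered by wild-type level per kb of exon, the members spanned from 46788 ± 3722 normalized counts per kb for *act-2* to 0.233 ± 0.128 for *myo-2* (SD, n = 3 each). *sca-1* at 6243 ± 314, *pat-3* at 4860 ± 1411 and *act-1* at 4023 ± 727 followed *act-2*, and *pat-3* overlapped with both *sca-1* and *act-1* among its replicates. *inx-8* at 1139 ± 132, *act-4* at 1131 ± 279 and *mlc-2* at 1016 ± 236 came next and did not differ beyond their spread. *pat-10* was at 808 ± 275, *unc-54* at 136 ± 20.4 and *myo-3* at 13.03 ± 4.97, so that the major body wall myosin stood well below the sheath innexin *inx-8*. In *adr-2(-)* the same order began with *act-2* at 43163 ± 6860, *sca-1* at 5404 ± 732, *pat-3* at 3987 ± 876 and *act-1* at 3760 ± 645 normalized counts per kb. Exon lengths came from a later annotation than the one used for counting, and for *act-1*, *act-2* and *pat-3* the editing lists assigned 10, 17 and 58 entries to positions outside the later span.

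No member passed the limma test between strains. Of the 36 tested, limma on log2(normalized count + 1) called 0 at an adjusted p of at most 0.05 and an absolute log2 fold change of at least 0.5, where 0.297% of all tested genes were called. One member, *act-3*, had an unadjusted p under 0.05, where 12.5% of all genes did. edgeR called 0 members (0.199% of all genes) with 4 at an unadjusted p under 0.05, namely *act-3*, *unc-54*, *myo-3* and *unc-15*. The last 3 were high in *adr-2(-)* replicate 1 and overlapped between strains without it. DESeq2 called 1, *act-3*, where it called 1.31% of all genes. It had 3 members at an unadjusted p under 0.05, namely *act-3*, *cpn-3* and *sca-1*, the last lower in *adr-2(-)*. Without *adr-2(-)* replicate 1, each of the 3 tools had 1 member at an unadjusted p under 0.05 and called 0. The share of all genes at that unadjusted p was counted only for limma with all libraries. The member counts of the other fits therefore have no background to be read against. Strains did not overlap for 2 members with *adr-2(-)* higher, *act-3* and *unc-68*, and for 0 with *adr-2(-)* lower, where 9.5% and 9.26% of all genes were of these kinds.

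The fold changes nonetheless leaned one way with all libraries included. Of 36 members, 30 were higher in *adr-2(-)* on the log2 scale, where 51.1% of all genes were, and the median log2 fold change was 0.47 against 0.00 over all genes. A median standard error of 0.36 went with these values. Without *adr-2(-)* replicate 1 the median was 0.04, 15 of the 36 were below 0, and the median standard error was 0.24. In absolute size 32 of the 36 fold changes were smaller without that library. Of the 17 members at an absolute log2 fold change of 0.5 or more, 2 stayed there, *act-3* at 1.61 and *ceh-18* at 0.85. *unc-54* had a log2 fold change of 1.07 ± 0.72 with all libraries and of -0.00 ± 0.19 without that library (standard error), and *unc-22* with 0.72 ± 0.47 and 0.03 ± 0.19. *pat-2* turned round, at 0.22 ± 0.54 and -0.52 ± 0.30.

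**Figure D4:**
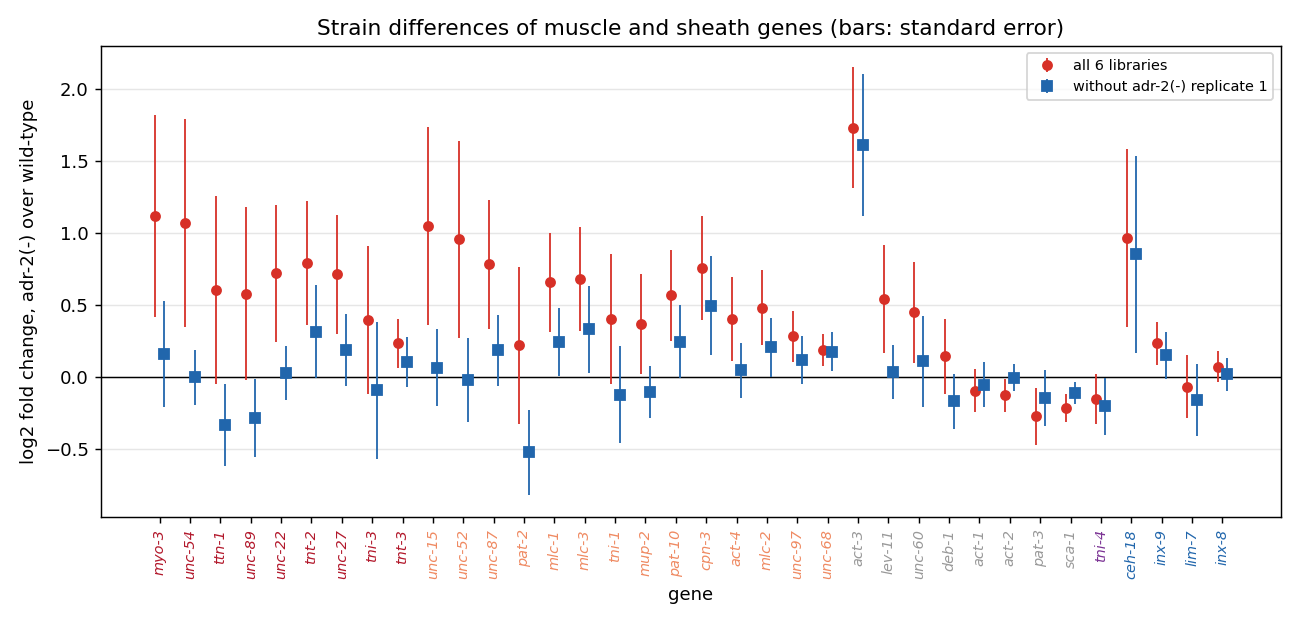
Log2 fold change, *adr-2(-)* over wild type, with its standard error for the 36 tested genes, from all 6 libraries (red circles) and without *adr-2(-)* replicate 1 (blue squares), with gene names coloured by class. Most body wall and shared muscle genes move closer to 0 without that library, though they then range from -0.52 for *pat-2* to 0.49 for *cpn-3*. *act-3* stays at 1.61 and *ceh-18* at 0.85, and none of the 36 passed the limma test with or without that library.

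Other tissue markers moved with the muscle genes in *adr-2(-)* replicate 1. Of intestinal markers, 8 of 9 tested were at least 2-fold above the median of the other libraries, and their sum ranged from 1485 to 9770 normalized counts in *adr-2(-)* and from 1329 to 2269 in wild type. Of hypodermal and cuticle markers, 5 of 6 were, with sums of 585 to 3280 in *adr-2(-)* and 561 to 752 in wild type. Of sperm markers, 8 of 9 were, with sums of 107 to 753 in *adr-2(-)* and 65.8 to 534 in wild type. These counts depend in part on the minimum for testing. *nas-37*, *col-118* and *msp-19* reached it only through that library, at 90.2, 92.7 and 26.7 normalized counts, against at most 5.43, 5.75 and 16.4 elsewhere. The cuticle markers *rol-6*, *dpy-7*, *dpy-13* and *bli-1* fell below it, and none was highest in that library. *bli-1* had 1.27 there, against 7.24 to 16.8 in the other libraries. Of the other lists, some markers below the minimum were highest in that library. The spermathecal *sth-1* had 15.2 there, against at most 5.81 elsewhere, and the neuronal *snt-1* 12.7, against at most 1.93. The intestinal *elt-2* had 7.62, against at most 2.90. *hlh-12*, *sng-1*, *aex-3* and *spe-9*, also below the minimum, were not highest in that library. The yolk protein gene *vit-6* had 4696, 627 and 472 normalized counts in *adr-2(-)*, against 713, 498 and 860 in wild type, and the cuticle collagen gene *col-19* had 2945, 728 and 478, against 414, 619 and 543. Neuronal markers reached 2-fold for 2 of 7, and 0 of 15 germline, 0 of 4 spermatheca and distal gonad and 0 of 3 coelomocyte markers did. Germline markers summed to 578500 to 682278 normalized counts in *adr-2(-)* and 650693 to 675192 in wild type, with *adr-2(-)* replicate 1 at 0.878 of the median of the others. The part of these tissues in the muscle values was not tested.

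Replicate 2 of both strains carried a smaller excess, noticed after the values were seen. With *adr-2(-)* replicate 1 set aside, the 2 replicate 2 libraries were the highest of the other 5 for 18 of 36 members, where this held for 6.57% of all genes. The 18 were *unc-54*, *myo-3*, *unc-15*, *mlc-1*, *mlc-2*, *mlc-3*, *act-4*, *lev-11*, *tnt-2*, *mup-2*, *unc-27*, *tni-1*, *tni-3*, *pat-10*, *unc-87*, *unc-60*, *cpn-3* and *unc-52*. Their mean in the replicate 2 libraries was 1.30 to 2.004 times that in the other 3, with a median of 1.59. None of the giant protein, calcium or sheath identity genes were among them. By the same ratio *unc-22* was at 1.03, *ttn-1* at 0.998 and *unc-68* at 1.01, and of the sheath genes *inx-8* was at 0.925, *inx-9* at 0.967, *lim-7* at 1.02 and *ceh-18*, with its low wild-type replicate 1, at 1.5. The giant genes, which were at least 4-fold higher in *adr-2(-)* replicate 1, did not share this excess.

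Further genes of the sarcomere, of adhesion and of sheath contraction were taken from a list of 37, of which 36 were matched in the table and 35 were tested. Of these, limma called 0, with 3 at an unadjusted p under 0.05, a share below the 12.5% of all genes. DESeq2 and edgeR called 0 with 5 and 4 at that p, for which their share of all genes was not counted. On the log2 scale 21 were higher and 14 lower in *adr-2(-)*, and the median over the list was 0.06. Leaving out *adr-2(-)* replicate 1, 15 were higher and 19 lower, and the median was -0.02. Of the 35, 10 were at least 2-fold above the median of the other libraries in *adr-2(-)* replicate 1, led by *csq-1*, the calcium-binding calsequestrin, with 437, 24.4 and 59.8 normalized counts in *adr-2(-)*, against 35.8, 47.3 and 37.7 in wild type. The dense body protein *atn-1*, alpha-actinin, had 475, 155 and 121 normalized counts in *adr-2(-)*, against 139, 167 and 118.1 in wild type.

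Among genes of non-muscle contractility, *nmy-1*, a non-muscle myosin heavy chain that acts in the gonad, had 1728, 655 and 827 normalized counts in *adr-2(-)*, against 528, 588 and 630 in wild type. Strains did not overlap for *nmy-1*, with a log2 fold change of 0.75, a standard error of 0.29 and a limma adjusted p of 0.341, and the fold change was 0.34 without *adr-2(-)* replicate 1. Of the 35 tested, 3 did not overlap with *adr-2(-)* higher, *nmy-1*, *ipp-5* and *unc-94*, and 1 with it lower, *pat-4*. Of all genes, 9.5% and 9.26% were of these kinds, so these counts do not set the list apart. *ipp-5*, an inositol phosphatase that limits calcium signalling in the spermatheca, had 24.1, 13.6 and 14.9 normalized counts in *adr-2(-)*, against 7.37, 4.35 and 0 in wild type. These came from 19, 10 and 13 reads in *adr-2(-)* and 7, 9 and 0 in wild type. The log2 fold change of *ipp-5* was 2.34 with a standard error of 0.93 and a limma adjusted p of 0.343. Without *adr-2(-)* replicate 1 the gene fell below the minimum mean and had no limma value. It thus entered the genes tested, and those at 2-fold, only with that library. The germline innexins *inx-14*, *inx-21* and *inx-22*, partners of the sheath innexins, had log2 fold changes of 0.01, 0.24 and -0.06, and none passed the test. Among them *inx-21* also did not overlap between strains.

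No high-confidence editing site lay in a member. Editing by ADR-2 turns adenosine into inosine, which is read as guanosine, and each list gives positions of such reads with a confidence score. Members held 414 listed positions in the merged *adr-2(-)* list, against 189, 353 and 195 in the wild-type lists. At a confidence of at least 0.75 there were 23 in *adr-2(-)*, against 12, 21 and 15 in wild type, and the *adr-2(-)* list, which merged 3 libraries, came from animals without the enzyme. Most listings fell on the most abundant members, with 105 in *adr-2(-)*, against 50, 95 and 51 in wild type, for *sca-1*, and 84, against 68, 89 and 74, for *act-2*. Sites at that confidence in all 3 wild-type replicates and not listed for *adr-2(-)* numbered 1012 in all genes and 0 in the 40 members. The 1012 sites lay in only 72 genes, beside 18206 genes in the expression table. Requiring only 2 of 3 replicates gave 1966 sites in 143 genes and also 0 in members. With so few genes holding a site, 0 among 40 members is not a result particular to muscle or sheath genes.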

How the data were processed

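Members and marker lists were chosen with earlier results of these data known. The authors aligned reads to WS275 with STAR 2.7.10b and deposited normalized counts per gene, the signal used here. All values were whole multiples of 1 read in their library (tolerance 1e-06), so reads were recovered exactly. The deposited editing lists gave a confidence score from SAILOR and a coverage entry with the read depth at each position, per wild-type replicate and merged for *adr-2(-)*. Names and exon lengths came from Ensembl release 115 (WBcel235).

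Testing covered genes averaging 10 or more normalized counts and used limma 3.58.1 (R 4.3.3) on log2(normalized count + 1) with a mean-variance trend, unpaired, with Benjamini-Hochberg adjustment over all genes, at adjusted p of at most 0.05 and absolute log2 fold change of at least 0.5. edgeR 4.0.16 and DESeq2 1.42.0 on recovered reads, other pseudocounts, filters and scalings, and leaving out libraries were alternatives. All 40 members are reported by role. Full statistics were given for members called or not overlapping at that fold. The fits were tested on simulated data. Floors from counts of 0 cover counting error only. The study's methods call the replicates biological. One gene of the related list is not reported here.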

Additional observations from a re-analysis of the deposited data

How the results depend on the processing

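Genes called between strains numbered 29 with limma, 19 with edgeR under both TMM and DESeq2 size factors, and 127 with DESeq2, or 77 with DESeq2 without *adr-2(-)* replicate 1. Leaving out 1 library at a time gave 8 to 64. Members called were 0 in every fit except DESeq2, which called 1, *act-3*, at a log2 fold change of 1.80. Without *adr-2(-)* replicate 1, direction turned for *unc-54* (-0.0014), *mup-2* (-0.10), *tni-1* (-0.12), *tni-3* (-0.092), *unc-89* (-0.28), *ttn-1* (-0.33), *unc-52* (-0.021), *pat-2* (-0.52) and *deb-1* (-0.17), all log2 fold changes that had not passed the test. Over the log2 fold changes without 1 library in turn, *unc-54* ranged from -0.0014 to 1.77, *mup-2* from -0.10 to 0.66, *tni-1* from -0.12 to 0.76, *tni-3* from -0.092 to 0.92, *unc-89* from -0.28 to 1.12, *ttn-1* from -0.33 to 1.20, *unc-52* from -0.021 to 1.48, *pat-2* from -0.52 to 0.76, *deb-1* from -0.17 to 0.34, *act-1* from -0.25 to 0.011 and *inx-8* from -0.00078 to 0.16.

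In DESeq2 and edgeR without *adr-2(-)* replicate 1, added after the data were seen, the same turn was found for *mup-2* (-0.13 in both), *tni-1* (-0.20 in both), *tni-3* (-0.0220 and -0.0219), *unc-89* (-0.27 in both), *ttn-1* (-0.33 in both), *unc-52* (-0.0766 and -0.0752), *pat-2* (-0.49 in both) and *deb-1* (-0.19 in both). *deb-1* was at -0.012 without wild-type replicate 3. The log2 ratio of strain means of the body wall sum, 1.33, was 0.10 without *adr-2(-)* replicate 1 and ran to 1.74 without another library. For muscle and other cells it was -0.14, or 0.22 by the median over members, and for the pharynx -0.16, or 0.034 by the median. The cause was not tested. The count of 22 members at 2-fold was 17 to 23 with other references.

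Deviations of same-numbered libraries from their strain means correlated at 0.03, -0.22 and 0.38. Those of differently numbered libraries correlated at -0.38 to 0.42. With so few libraries these values cannot decide whether replicate numbers pair the samples. A fit with the replicate number as a block called 25 genes and 0 members. Members under 10 normalized counts are limited by depth.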
